A study of Mus musculus with 6 samples.

Results

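The interferon-inducible GTPases of tumor-associated macrophages (TAMs) were followed through 10 genes, the guanylate-binding proteins Gbp2, Gbp3, Gbp4, Gbp5, Gbp6, Gbp7, Gbp8 and Gbp9 and the immunity-related GTPases Irgm1 and Igtp. They were taken by symbol from the 55421 genes of the count table, and all 10 were among the 14469 genes that passed the filter on low counts and were tested. TAMs from 3 libraries of Pdcd1f/fLysMcre mice were compared with TAMs from 3 libraries of Pdcd1f/f mice. Every mouse carried the floxed Pdcd1 alleles, which encode PD-1, and was implanted with the fibrosarcoma line MC17-51 (M17 in the labels) at 8 to 12 weeks of age. The cells were collected 15 days later as live CD45+CD11b+F4/80+Ly6G- cells. Only the Pdcd1f/fLysMcre mice carried Cre, which the lysozyme M (Lyz2) promoter drives in macrophages, monocytes and granulocytes. The comparison asks whether the level of these GTPases in TAMs differed between mice with and without Cre-driven targeting of PD-1 in myeloid cells. Since the controls carried no Cre, effects of PD-1 loss, of Cre itself and of its insertion in Lyz2 cannot be told apart. The labels do not say whether a library came from 1 mouse or from pooled mice, so the p-values measure only the spread between these libraries.

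Interferon-γ binds a receptor made of Ifngr1 and Ifngr2, and signals through the kinases Jak1 and Jak2. The signal reaches genes through GAS elements, and through ISRE elements, on which Irf1 acts. Both guanylate-binding proteins (GBPs) and immunity-related GTPases (IRGs) are induced in macrophages by this route. They are known for attacking the vacuoles and membranes of intracellular pathogens and for helping inflammasomes respond to bacterial products.

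The libraries held 41833823 to 51417209 counts, so that 3 counts corresponded to a CPM of 0.0583 to 0.0717. Pdcd1 itself had 10, 12 and 15 counts in Pdcd1f/f replicates 1 to 3 and 7, 16 and 11 in Pdcd1f/fLysMcre replicates 1 to 3, with a log2 fold change of -0.25 (95% interval -1.24 to 0.74, edgeR adjusted p = 0.771). Which exons Cre removes is not given in the sources used here, so this count over the whole gene does not check the deletion. Lyz2, the gene that holds the Cre in this strain, had at least 189889 counts in each Pdcd1f/f library and at most 503 in each Pdcd1f/fLysMcre library. This fall of Lyz2 (log2 fold change -8.99) goes with the genotype, so its effects cannot be told apart from those of PD-1 loss. The macrophage markers were high in every library, and 3 of their 7 genes were called lower in Pdcd1f/fLysMcre TAMs (Adgre1, Csf1r and Mertk), where 3.01% of all tested genes were called lower and 5.43% in either direction. In RPKM (counts per kilobase of annotated exon, scaled by the library total), most markers of other cells were lower than every macrophage marker, but the neutrophil genes S100a8 (mean of 41.6) and S100a9 (24.4) were not, with Mertk at 24.1 and Ptprc at 31.9 in the macrophage list. The defining neutrophil marker Ly6g was at 0.0666 at most, and no marker of any list was at 0 in all libraries. Sums of normalized counts did not overlap for the macrophage (212605 to 226893 in Pdcd1f/f against 191083 to 193710 in Pdcd1f/fLysMcre), neutrophil (4184 to 4486 against 3798 to 3926), endothelial (1879 to 1989 against 1520 to 1666) and B cell lists (169 to 209 against 120 to 149). They overlapped for the T cell (606 to 686 against 552 to 663), NK cell (64.8 to 70.1 against 68.6 to 124), dendritic cell (221 to 300 against 285 to 359) and fibroblast or tumor cell lists (3066 to 3328 against 2922 to 3228). In the neutrophil list 1 of 4 tested genes was called, Csf3r (means of 2412 and 1694, adjusted p = 0.00686), while S100a8 was at 1253 and 1472 and S100a9 at 575 and 626, neither called. In the endothelial list it was 1 of 4, Pecam1 (1082 and 702, adjusted p = 0.00340), while Kdr was at 691 and 698 and Cdh5 at 169 and 168. In the fibroblast or tumor cell list 1 of 6 was called, Col1a2 (lower, adjusted p = 0.0121). None of the 3 tested dendritic cell genes was called. Flt3 was at means of 46.6 and 74.8 (adjusted p = 0.137), Zbtb46 at 50.5 and 81.0 (0.120) and Ccr7 at 169 and 173. The T cell sum came mostly from Cd4 (means of 611 and 572), which macrophages can also express, while the T cell receptor gene Trac was at 26.0 to 32.4 against 34.4 to 56.4 (adjusted p = 0.311). The part of these cells in the results was not tested. The female transcript Xist was at 17318 to 26511 normalized counts in Pdcd1f/f and at 8530 to 13137 in Pdcd1f/fLysMcre libraries, while the Y-linked Ddx3y was at 687 to 900 and at 2720 to 2980. Sex-linked transcripts thus moved with the genotype, and their part in the results was not tested. Every library held both transcripts, as a mix of female and male cells would. The paper reports using male and female mice in equal numbers, without giving the sexes behind each library. Whether each library pooled mice of both sexes was not tested. In Pdcd1f/f replicate 1 and Pdcd1f/fLysMcre replicate 2 the deviations from the genotype mean fell with the GC content of a gene. Spearman's rho across genes was -0.579 and -0.490, against 0.117 to 0.511 in the other libraries. Replicate 3 reached 0.511 in Pdcd1f/f and 0.499 in Pdcd1f/fLysMcre. Deviations from a genotype mean must go both ways, so the sign of rho alone does not set libraries apart.

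The promoters were searched for the ISRE and GAS elements named above. RefSeq windows from 250 bases before to 50 after the start site (GRCm38.p6) were given for 6 of the 10 members, Gbp2, Gbp3, Gbp5, Gbp7, Irgm1 and Igtp, and for none of Gbp4, Gbp6, Gbp8 and Gbp9. An ISRE motif (GAAANNGAAA on either strand, hence also TTTCNNTTTC) lay in a window of all 6, and in 3.44% of the 32851 windows of all genes. A GAS motif (TTCNNNGAA, the same on both strands) lay in the windows of Gbp5, Gbp7 and Igtp, and in 8.30% of all windows. Windows with both motifs made up 0.454% of the total. A second GAS match of Gbp5, 245 bases before the start site, lies outside the stretch shown. The sequences are shown 5′ to 3′ on the strand of the gene, with ISRE and GAS matches in capitals.
Gbp2, chr3:142620584-142620633, plus strand: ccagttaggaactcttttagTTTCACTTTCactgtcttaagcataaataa
Gbp3, chr3:142559979-142560034, plus strand: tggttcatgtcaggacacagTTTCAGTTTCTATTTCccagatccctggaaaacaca
Gbp5, chr3:142496749-142496910, plus strand: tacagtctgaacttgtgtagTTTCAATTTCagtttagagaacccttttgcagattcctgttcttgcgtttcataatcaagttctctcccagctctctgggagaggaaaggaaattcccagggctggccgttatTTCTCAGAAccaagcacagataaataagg
Gbp7, chr3:142530210-142530312, plus strand: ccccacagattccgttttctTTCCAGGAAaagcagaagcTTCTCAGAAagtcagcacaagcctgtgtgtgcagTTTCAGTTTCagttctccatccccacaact
Irgm1, chr11:48871421-48871470, minus strand: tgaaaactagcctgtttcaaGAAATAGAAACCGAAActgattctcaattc
Igtp, chr11:58199491-58199551, plus strand: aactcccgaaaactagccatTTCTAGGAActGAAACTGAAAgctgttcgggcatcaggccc

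The ISRE began 59 bases before the start site in Gbp2, 53 before it in Gbp7 and 165 before it in Gbp5. Gbp3 and Irgm1 each held a pair of overlapping ISRE matches, which make the longer capital runs above, at 45 and 39 bases before the start site in Gbp3 and at 30 and 24 in Irgm1. In the GBP promoters the motif was read as TTTCNNTTTC, and in Irgm1 and Igtp as GAAANNGAAA. In Igtp the GAS began 45 bases and the ISRE 34 bases before the start site, a spacing of 11 bases. The same spacing was found in the IRG genes Irgm2, Tgtp1, Tgtp2 and Gm12185, which are no members. Of the 19 other interferon-inducible GTPases listed, 9 had a window, 6 of these held an ISRE and 4 a GAS (the ISRE of 9930111J21Rik1 lies after the start site), and Ifi47, Irgq and 9930111J21Rik2 held neither.
Irgm2, chr11:58214882-58214942, plus strand: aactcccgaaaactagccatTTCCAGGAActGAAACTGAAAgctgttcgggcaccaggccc
Tgtp2, chr11:49064253-49064313, minus strand: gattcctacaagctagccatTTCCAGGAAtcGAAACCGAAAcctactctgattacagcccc
The Igtp and Irgm2 stretches were identical at 59 of 61 bases, and those of Igtp and Tgtp2 at 42 of 61. These matches describe the letters and do not show that a factor was bound in these cells.

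**Figure D1:**
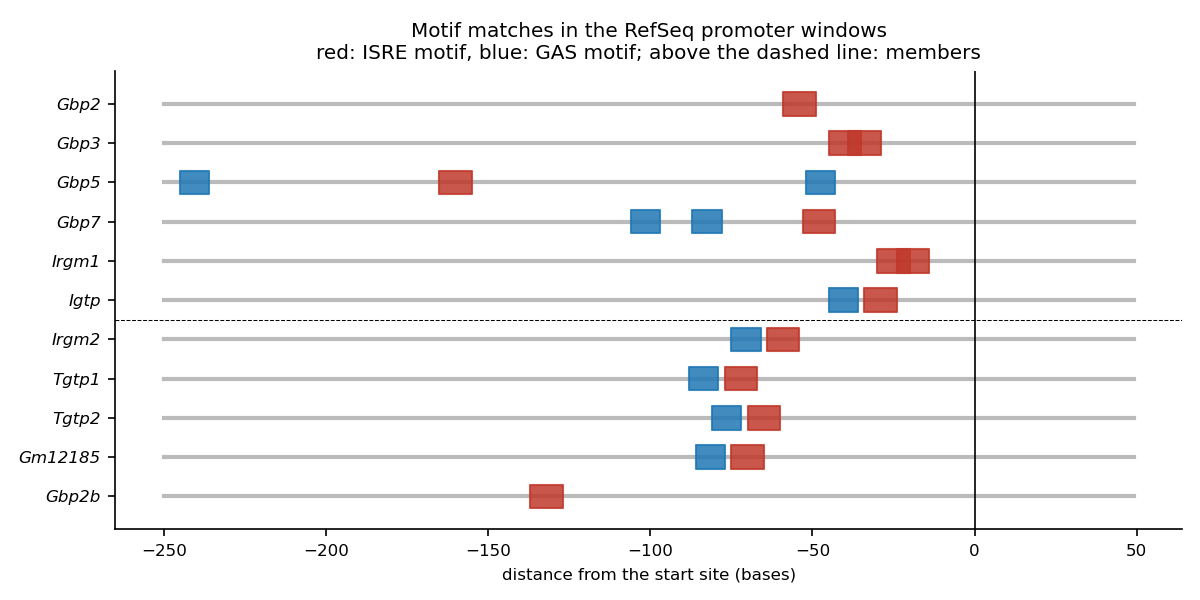
Positions of ISRE (red) and GAS (blue) motif matches in the RefSeq promoter windows of the 6 members with a window and of 5 other interferon-inducible GTPases with a match before the start site, as distance in bases from it; others are not drawn. All 6 members hold an ISRE upstream of the start site, and Igtp, Irgm2, Tgtp1, Tgtp2 and Gm12185 hold a GAS 11 bases before the ISRE.

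The 10 genes lie on 3 chromosomes (GRCm38), none of which holds Pdcd1 or Lyz2. Gbp5 (chr3:142493978-142522344), Gbp7 (chr3:142530342-142550149), Gbp3 (chr3:142560026-142573209) and Gbp2 (chr3:142620602-142638008) lie on the plus strand, with Gbp2b between Gbp3 and Gbp2. Gbp8 (chr5:105014150-105139540), Gbp9 (chr5:105077630-105139539), Gbp4 (chr5:105115767-105139586) and Gbp6 (chr5:105270702-105293698) lie on the minus strand. Irgm1 (chr11:48861968-48871683, minus strand) and Igtp (chr11:58199556-58207591, plus strand) are both on chromosome 11.

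All 10 GTPases were expressed in TAMs of both genotypes. To compare genes, counts were expressed per kilobase of annotated exon, scaled by the library total (RPKM), over the 6 libraries. Gbp2, which coats pathogen vacuoles in macrophages, was the highest at 38.0 ± 1.67 (SD, n = 6), above 90.6% of the tested genes. Gbp3 followed at 17.3 ± 0.733, Igtp at 17.1 ± 0.779, Irgm1 at 15.0 ± 0.741, Gbp7 at 12.3 ± 1.24 and Gbp9 at 11.5 ± 0.858. From Gbp3 to Gbp9 the range of each gene over the libraries overlapped that of the next. Within single libraries Igtp was above Irgm1 and Irgm1 above Gbp7 in 6 of 6, while Gbp3 was above Igtp in 3 and Gbp7 above Gbp9 in 4, so the order of these last pairs is not resolved. Gbp5 was lower at 4.90 ± 0.230, Gbp4 at 2.89 ± 0.242 and Gbp8 at 2.81 ± 0.522, the last pair overlapping. Gbp6 was the lowest at 1.22 ± 0.171, above 31.3% of the tested genes. The steps from Gbp2 to Gbp3, from Gbp9 to Gbp5, from Gbp5 to Gbp4 and from Gbp8 to Gbp6 separated all libraries. The exon length is the union over transcripts, which lowers the value of a gene with long alternative exons.

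**Figure D2:**
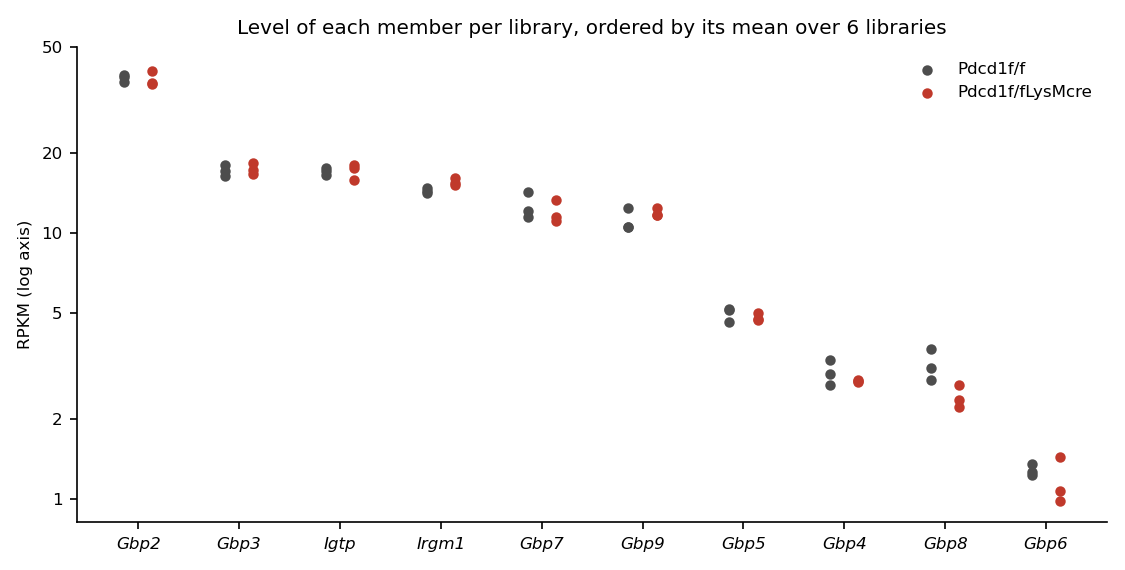
Level of each member in each library, in RPKM on a log axis, for 3 Pdcd1f/f (grey) and 3 Pdcd1f/fLysMcre (red) libraries. Gbp2 lies at 36.4 to 40.5 and Gbp6 at 0.986 to 1.44, and the genotypes overlap for every member but Gbp8 and Irgm1.

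None of the 4 chromosome 3 GBPs passed the test. Values are normalized counts (counts divided by a size factor of the library) in replicates 1, 2 and 3, and changes are log2 fold changes of Pdcd1f/fLysMcre over Pdcd1f/f with SE and adjusted p from edgeR's two-sided quasi-likelihood test. Gbp2 was at 4622, 4353 and 4569 in Pdcd1f/f and at 4374, 4878 and 4299 in Pdcd1f/fLysMcre TAMs. Its means of 4515 ± 143 and 4517 ± 315 (SD, n = 3) gave a log2 fold change of 0.00 ± 0.07 (adjusted p = 0.984), with a 95% interval of -0.15 to 0.15. A change of Gbp2 beyond 1.11-fold in either direction therefore lay outside the interval. Gbp3, of the same cluster, was at 2749, 2505 and 2629 in Pdcd1f/f and at 2580, 2853 and 2661 in Pdcd1f/fLysMcre TAMs, with overlapping genotypes and a log2 fold change of 0.04 ± 0.07 (adjusted p = 0.762). Gbp5, known for promoting assembly of the NLRP3 inflammasome, was at 1609, 1436 and 1603 against 1499, 1499 and 1567, with a log2 fold change of -0.02 ± 0.07 (adjusted p = 0.870). The Pdcd1f/fLysMcre values fell inside the Pdcd1f/f range. Gbp7, which has been tied to the phagocyte oxidase and autophagy, was at 3761, 3027 and 3209 against 3084, 3574 and 2919, with a log2 fold change of -0.06 ± 0.10 (adjusted p = 0.746). In both genotypes 1 library stood above the other two, and these were Pdcd1f/f replicate 1 and Pdcd1f/fLysMcre replicate 2.

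Among the chromosome 5 GBPs, Gbp8 had the largest difference of the 10 members and did not pass the test. It was at 591, 499 and 455 in Pdcd1f/f and at 439, 390 and 359 in Pdcd1f/fLysMcre TAMs. All 3 Pdcd1f/fLysMcre libraries were thus below all 3 Pdcd1f/f libraries. The means were 515 ± 69.4 and 396 ± 40.6 (SD, n = 3), a log2 fold change of -0.38 ± 0.12 with a 95% interval of -0.65 to -0.10. As a ratio this was 0.770, with an interval from 0.637 to 0.931. The p-value of edgeR was 0.0116 and the adjusted p 0.0988. Gbp4 was at 1177, 939 and 1045 in Pdcd1f/f and at 995, 1006 and 971 in Pdcd1f/fLysMcre TAMs (log2 fold change -0.09 ± 0.09, adjusted p = 0.592), all within the Pdcd1f/f range. Gbp9 was at 3014, 2543 and 2558 against 3043, 2892 and 2844, with a log2 fold change of 0.12 ± 0.08 (adjusted p = 0.401). Its genotypes overlapped through Pdcd1f/f replicate 1. Gbp6 was at 378, 342 and 356 against 279, 410 and 300 (log2 fold change -0.12 ± 0.15, adjusted p = 0.651), and its Pdcd1f/fLysMcre libraries lay on both sides of the controls. Without Pdcd1f/fLysMcre replicate 1 Gbp6 was at -0.01 and without Pdcd1f/fLysMcre replicate 2 at -0.31, neither past the threshold.

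Neither IRG passed the test. Irgm1, a regulatory IRG needed for macrophage defense against mycobacteria, was at 4026, 3904 and 3856 in Pdcd1f/f and at 4167, 4483 and 4197 in Pdcd1f/fLysMcre TAMs. Here all 3 Pdcd1f/fLysMcre libraries were above the controls, with means of 3929 ± 87.3 and 4283 ± 174 (SD, n = 3). The log2 fold change was 0.13 ± 0.06, with a 95% interval of -0.01 to 0.26 and an edgeR adjusted p of 0.236. Igtp, also called Irgm3 and likewise a regulator of other IRGs, was at 1662, 1563 and 1633 against 1523, 1736 and 1668. Its genotypes overlapped, and its log2 fold change was 0.02 ± 0.07 (adjusted p = 0.883).

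**Figure D3:**
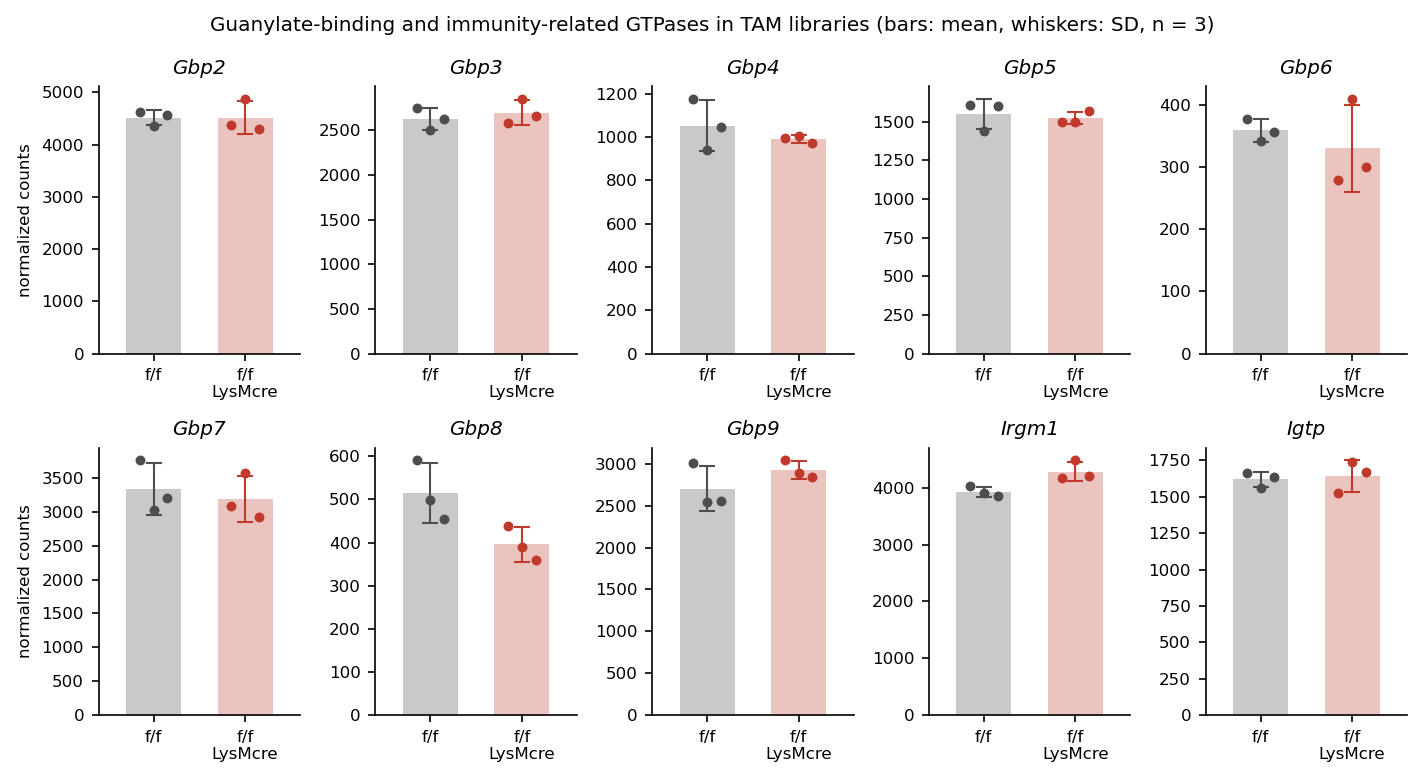
Normalized counts of the 10 members in 3 Pdcd1f/f (grey) and 3 Pdcd1f/fLysMcre (red) libraries, with each library as a point, the mean as a bar from 0 and the SD as whiskers. Gbp8 (455 to 591 against 359 to 439) and Irgm1 (3856 to 4026 against 4167 to 4483) are the members whose genotypes do not overlap.

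Taking the members together, 0 of 10 were called by edgeR at an adjusted p under 0.05, where 5.43% of all tested genes were called (3.01% lower and 2.42% higher in Pdcd1f/fLysMcre TAMs). At an unadjusted p under 0.05 the count was 1, Gbp8, where 24.2% of all tested genes were under it. Of the 10 members 5 had a fold change above 0 and 5 below 0, and their median log2 fold change was -0.01, beside -0.00 over all tested genes. The sign of Gbp2 turned when library size alone was used for scaling (log2 fold change -0.02). The 95% intervals of the members ran from -0.65 to 0.29, and without Gbp8 from -0.44 to 0.29. The genotypes did not overlap for 2 of the 10, Gbp8 and Irgm1, which compares with 27.2% of all tested genes. Summed over the members, the Pdcd1f/f libraries held 23588, 21110 and 21914 normalized counts and the Pdcd1f/fLysMcre libraries 21984, 23723 and 21785. The sums therefore overlapped. Since RNA was measured in bulk, fewer expressing cells and less RNA per cell could not be told apart for any of these values.

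**Figure D4:**
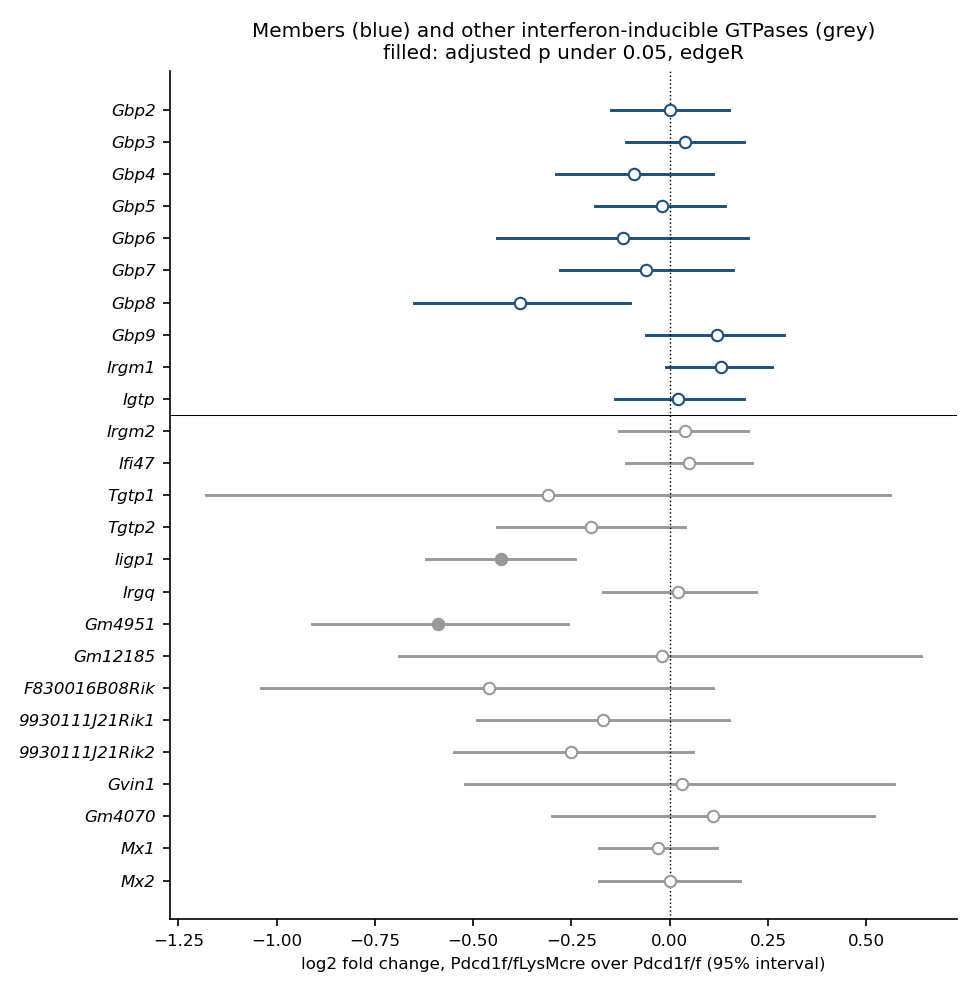
Log2 fold change of Pdcd1f/fLysMcre over Pdcd1f/f with its 95% interval for the 10 members (blue) and the 15 tested other interferon-inducible GTPases (grey), with filled points for an edgeR adjusted p under 0.05. No member is filled, the interval of Gbp8 lies below 0 at -0.65 to -0.10, and Iigp1 and Gm4951 are filled.

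Gbp8 was called lower by some other ways of analysing the same counts. DESeq2 called it with an adjusted p of 0.0447 and a Storey q-value of 0.0334, as 1 of 10 members in each case, where 11.0% and 13.0% of all genes were called. With all genes of at least 1 count tested, its adjusted p was 0.0268, and 7.32% of all genes were called. Offsets for GC content and gene length gave -0.44 with an adjusted p of 0.00416, and also called Gbp7 lower (-0.16, adjusted p = 0.0392), which made 2 of 10 members where 18.6% of all genes were called. Those offsets with the replicate number as a block called Gbp8 alone (adjusted p = 0.00272), where 19.0% of all genes were called. With Pdcd1f/f replicate 1 and Pdcd1f/fLysMcre replicate 2 both left out, Gbp8 was not called (-0.26, adjusted p = 0.106) and Gbp9 was called higher (0.20, adjusted p = 0.0153), 1 of 10 members where 26.2% of all genes were called. With the GC and length offsets Gbp9 was at 0.03 (adjusted p = 0.777). limma-trend called none of the 10. The log2 fold change of Gbp8 stayed below 0 in all 17 alternative fits, between -0.46 and -0.26.

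Members of this family resemble one another in sequence, and reads of 42 bases can be lost or moved between them. Of the 42-base windows of the Gbp6 transcripts, 71.9% also occurred in another gene, with 66.2% in Gm43302 and 48.2% in Gbp10, so the Gbp6 counts are uncertain. For Gbp8 the share was 23.0%, spread over Gbp11, Gbp9 and Gbp4, and for Gbp7 it was 13.5%, mostly with the pseudogene Gm43802. It was 13.4% for Igtp, 11.3% for Gbp9, 10.4% for Gbp4 and at most 4.49% for Gbp2, Gbp3, Gbp5 and Irgm1. Annotated exons also overlap on the same strand. Gbp6 shares 1726 of its 5954 exon bases with Gm43302 and Gbp7 637 of 5614 with Gm43802. Gbp4, Gbp8 and Gbp9 share 60 or 61 exon bases, and Igtp shares 162 of its 2022 exon bases with Irgm2. How reads that fit several genes were counted is not given in the sources used here.

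The members varied together to some degree within a genotype. Pdcd1f/f replicate 1 was the highest control library for all 10 members, and Pdcd1f/fLysMcre replicate 2 the highest of its genotype for 7 of 10. These are the libraries whose deviations from the genotype mean fell with the GC content of a gene. The longest annotated transcripts of the members held 41.1% to 49.5% GC. As deviations from the genotype means, 40 of the 45 pairs of members correlated above 0, with a median Pearson r of 0.532 over 6 libraries. The pairs share the same 6 libraries, and the part of GC content in this was not tested. Pairs drawn from all tested genes were not compared, so the values are not shown to be particular to the members. Outside the lists, the genes whose log2 CPM followed the mean of the members most closely were Rfx3 (r = 0.998), Elf2 (0.987), Snhg12 (0.984), Thap6 (0.983) and Cttnbp2nl (0.982), over 6 libraries and out of 14343 genes. They were picked for the highest r, which over so few libraries can be high by selection alone. Shared regulation with the members was not tested.

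Beyond the members, 19 other interferon-inducible GTPases were listed, of which 15 were tested. Of these, 2 were called (5.43% of all tested genes were called), both lower in Pdcd1f/fLysMcre TAMs and both relatives of Igtp. Iigp1, an effector IRG that loads onto parasite vacuoles, had 1115, 800 and 844 counts in Pdcd1f/f and 790, 733 and 701 in Pdcd1f/fLysMcre libraries. Its normalized means were 951 ± 73.7 and 706 ± 22.0 (SD, n = 3), a log2 fold change of -0.43 ± 0.09 (adjusted p = 0.0179). Gm4951, a second IRG-like gene, fell from 247 ± 10.2 to 164 ± 28.4, a log2 fold change of -0.59 ± 0.15 (adjusted p = 0.0444). The genotypes did not overlap for either gene. Leaving out 1 library removed the Iigp1 call without Pdcd1f/f replicate 2 (adjusted p = 0.0610) and without Pdcd1f/fLysMcre replicates 1, 2 and 3 (0.0792, 0.0631 and 0.0568). It removed the Gm4951 call without Pdcd1f/f replicates 2 and 3 (0.192 and 0.107) and without Pdcd1f/fLysMcre replicates 1 and 3 (0.140 and 0.0977). Irgm2, the close relative of Igtp whose promoter is shown above, gave 0.04 ± 0.08 (adjusted p = 0.814), and Ifi47, a further effector IRG, 0.05 ± 0.07 (adjusted p = 0.682). The median over the 15 tested genes was -0.03. Gbp2b, Gbp10, Gbp11 and Irgc1 did not pass the filter, with at most 18 counts in a library for Gbp2b.

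Of the 15 tested genes of interferon-γ signalling, 3 were called, where 5.43% of all tested genes were called. Ifng, the ligand, had 0 to 4 counts in each library and was not tested. Its receptor chain Ifngr1, which binds the ligand, was at 12022 ± 216 in Pdcd1f/f and at 9889 ± 470 in Pdcd1f/fLysMcre TAMs (SD, n = 3), a log2 fold change of -0.28 ± 0.06 (adjusted p = 0.0254). The second chain Ifngr2 gave 0.01 ± 0.06 (adjusted p = 0.943). Jak2, the kinase held by Ifngr2, was higher (4446 ± 265 against 5298 ± 103, 0.25 ± 0.06, adjusted p = 0.0484), a call lost under RLE factors (0.0512), library size alone (0.0621) and limma-trend (0.0559). Jak1, the kinase held by Ifngr1, gave 0.02 ± 0.06 (adjusted p = 0.846). Irf1, which acts on ISRE elements, was lower (2827 ± 232 against 2200 ± 213, -0.36 ± 0.09, adjusted p = 0.0446). Irf8, a myeloid factor of the same family, was at 4253 ± 382 and 3452 ± 132 (-0.30 ± 0.08, adjusted p = 0.0519). It was past the threshold in 11 of 17 alternatives, among them without Pdcd1f/f replicate 1 (0.00221). Without each of the other libraries its adjusted p was 0.0701 to 0.246. The median of the list was -0.00. The Ifngr1 call was lost without Pdcd1f/f replicates 2 and 3 (adjusted p = 0.130 and 0.0735) and without Pdcd1f/fLysMcre replicates 1 and 3 (0.143 and 0.0780). The Irf1 call was lost without Pdcd1f/f replicates 2 and 3 (0.185 and 0.164) and without Pdcd1f/fLysMcre replicates 1 and 2 (0.169 and 0.147), and the Jak2 call held only without Pdcd1f/f replicate 1 (0.00714) and was at 0.0900 to 0.210 without each of the others.

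Of 18 tested other targets of interferon-γ, 3 were called, all lower (3.01% of all tested genes were called lower), and the median of the list was -0.16. Cxcl9, a chemokine that attracts T cells through CXCR3, had 2393, 1800 and 1759 counts in Pdcd1f/f and 1230, 1427 and 1180 in Pdcd1f/fLysMcre libraries. Its normalized means were 2052 ± 151 and 1219 ± 122 (SD, n = 3), a log2 fold change of -0.75 ± 0.09 (adjusted p = 0.00122), and it was past the threshold in all 17 alternatives. Nlrc5, the transactivator of MHC class I genes, fell from 3330 ± 81.4 to 2747 ± 118 (-0.28 ± 0.06, adjusted p = 0.0350). Psmb9, a subunit of the immunoproteasome, fell from 2173 ± 241 to 1676 ± 104 (-0.37 ± 0.09, adjusted p = 0.0441). The Nlrc5 and Psmb9 calls held without Pdcd1f/f replicate 1 (0.00859 and 0.00190), and without each of the other libraries their adjusted p was at 0.0875 to 0.199 and at 0.0520 to 0.207. Cxcl10, a second CXCR3 ligand, was at 7600 ± 197 and 8802 ± 413 (0.21 ± 0.06, adjusted p = 0.0693). It was past the threshold in 6 of 17 alternatives, among them without Pdcd1f/f replicate 1 (0.0460). Without each of the other libraries the adjusted p of Cxcl10 was 0.116 to 0.273. Ciita, the transactivator of MHC class II genes, was at 110 ± 16.9 and 98.2 ± 14.1 (-0.16 ± 0.18, adjusted p = 0.631).

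Of the 18 type I interferon targets 1 was called, a share near the 5.43% over all tested genes. Ifit1, which binds viral RNA, rose from 3292 ± 46.3 to 4204 ± 319 (SD, n = 3; 0.35 ± 0.07, adjusted p = 0.0167), and the median of the list was 0.05. The call was lost without Pdcd1f/f replicates 2 and 3 (0.0851 and 0.0642) and without Pdcd1f/fLysMcre replicates 1 and 2 (0.0674 and 0.0509). Irf7, the factor that amplifies type I interferon, gave -0.18 ± 0.11 (adjusted p = 0.312). Irf7 was past the threshold without Pdcd1f/f replicate 1 (-0.31, adjusted p = 0.0103) and without both libraries whose deviations fell with GC content (-0.25, 0.00156). It was at -0.09 without Pdcd1f/f replicate 3 and at -0.06 with GC and length offsets.

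Genes that GBPs and IRGs work with were counted in 3 further lists. In the ATG8 conjugation system, which places the GTPases on target membranes, 1 of 10 was called. This was Gabarapl1, an ATG8 protein, at 2468 ± 75.4 and 2032 ± 40.4 (-0.28 ± 0.06, adjusted p = 0.0343). None of the 5 genes of prenylation, the lipid anchoring that some GBPs need, was called by edgeR, with 1 of 5 at an unadjusted p under 0.05 (24.2% over all tested genes). In the inflammasome list 1 of 8 was called, the adaptor Pycard, which fell from 3229 ± 230 to 2470 ± 110 (SD, n = 3; -0.38 ± 0.07, adjusted p = 0.0156). Without each library but Pdcd1f/f replicate 1 (0.00808) the adjusted p of Gabarapl1 was 0.0755 to 0.205. Pycard was at 0.114 without Pdcd1f/f replicate 2 and at 0.104 and 0.0512 without Pdcd1f/fLysMcre replicates 1 and 2. Over these 6 lists of interferon signalling, targets and partners, 9 of 74 tested genes were called, 2 higher and 7 lower, where 5.43% of all tested genes were called. The split was 7 higher and 11 lower with DESeq2, and 10 higher and 14 lower with GC and length offsets. Whether the members differ from these lists was not tested.

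**Figure D5:**
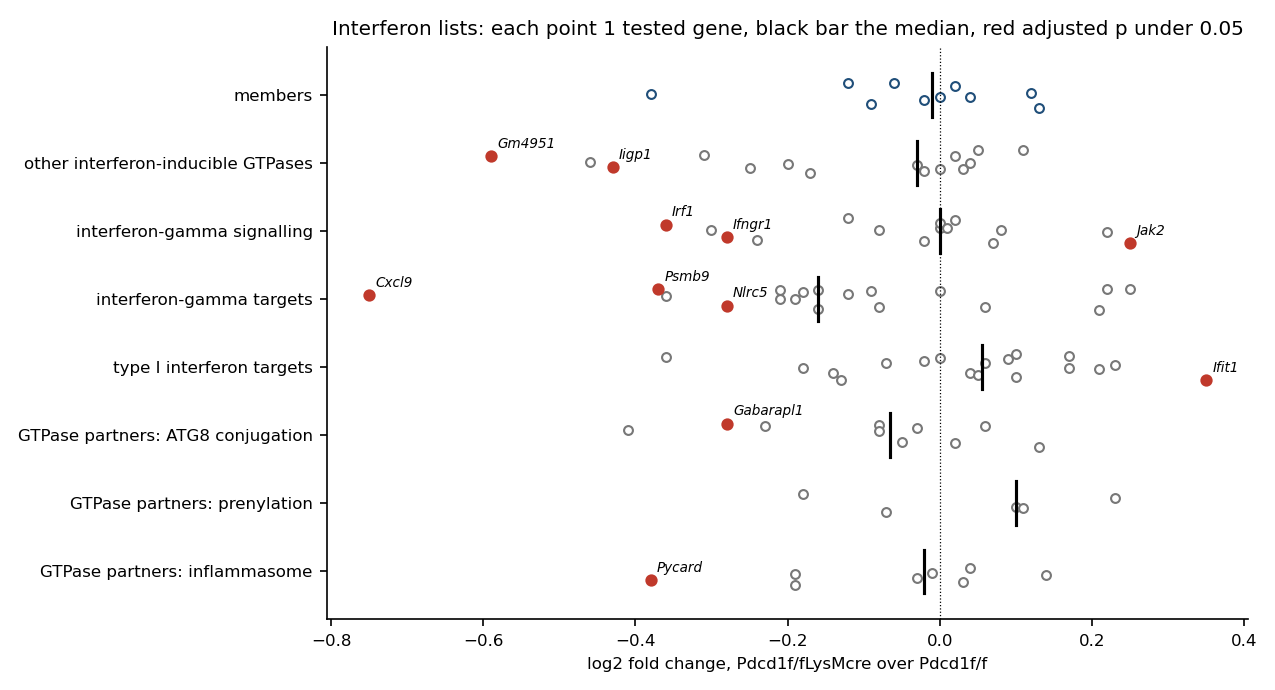
Log2 fold change of Pdcd1f/fLysMcre over Pdcd1f/f for each tested gene of the members and of 7 related lists, with the list median as a black bar and genes at an edgeR adjusted p under 0.05 in red and named. The members gather around their median of -0.01 with Gbp8 at -0.38 apart, and Cxcl9 lies farthest to the left at -0.75.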

How the data were processed

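Polyadenylated RNA of sorted TAMs was sequenced from stranded libraries as paired-end reads of 42 bases. Per the methods and the labels, the authors trimmed reads with cutadapt (2.5), aligned them to GRCm38 with STAR (2.7.3a) and counted them per Ensembl gene with featureCounts (Subread 1.6.2). The deposited raw counts were the input of all tests. The deposited normalized signal equals those counts divided by 1 size factor per library. Groups came from the sample titles.

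Counts were tested with edgeR (4.0.16, R 4.3.3), using filterByExpr (minimum count 10, minimum total 15), TMM normalization, robust glmQLFit, the two-sided glmQLFTest and Benjamini-Hochberg adjustment over 14469 genes (threshold 0.05). Alternatives were RLE factors, library size alone, other filters, DESeq2 (1.42.0) with Benjamini-Hochberg or Storey q-values, limma-trend (limma 3.58.1) on log2(value + 1), a replicate block, loess offsets on GC content and length, libraries left out and a threshold of 0.01. The fit was tested on simulated data. Symbols and exons came from GENCODE M21, which named 14461 of the 14469 tested genes, and promoters from RefSeq. Named genes were the 10 members, the called genes of each list with its defining genes, and the 5 genes most alike in pattern. A defining gene is not reported here. Members and lists were chosen with earlier results of these data known. Library totals of 41833823 to 51417209 counts limit the precision of genes with few counts, and floors cover counting error only.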

Additional observations from a re-analysis of the deposited data

How the results depend on the processing

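With each library left out in turn 0 of 10 members were called, as at a threshold of 0.01, which says nothing on stability since none was called to begin with. The count of called members was 0 under RLE factors, library size alone, at least 10 counts in every library, limma-trend and the replicate block. It was 1 with at least 1 count in any library, 1 with DESeq2, 1 with Storey q-values and 2 with GC and length offsets. It was 1 with those offsets and the block, and 1 without both libraries whose deviations fell with GC content. Across the 17 alternative fits 13 member values turned sign, none of them past the threshold. Over the libraries left out, Gbp2 ranged from -0.06 to 0.03, Gbp3 from -0.00 to 0.07, Gbp4 from -0.16 to -0.01, Gbp5 from -0.07 to -0.00, Gbp6 from -0.31 to -0.01, Gbp7 from -0.15 to 0.03, Gbp8 from -0.46 to -0.27, Gbp9 from 0.07 to 0.19, Irgm1 from 0.09 to 0.15, Igtp from -0.02 to 0.07, Ifi47 from -0.00 to 0.10, Ifngr2 from -0.01 to 0.02 and Jak1 from -0.02 to 0.04. Gbp2 was at -0.02 with library size alone, -0.00 with limma-trend and -0.01 with the offsets, alone or with the block. It was at -0.04 without both libraries whose deviations fell with GC content. In that last setting Gbp5 was at 0.01, Igtp at -0.01, Ifngr2 at -0.02 and Jak1 at -0.00. Ifngr2 was at -0.01 with library size alone, and Jak1 at -0.00 with the offsets, alone or with the block. The cause of these turns was not tested.

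Among the other interferon-inducible GTPases the called count ranged from 0 to 2 over the libraries left out and was 0 at the threshold of 0.01. The 6 pathway lists gave 16 calls with at least 1 count in any library, 18 with DESeq2 and 19 with Storey q-values. They gave 24 with the offsets, 25 with the offsets and the block and 33 without both libraries whose deviations fell with GC content. The count was 1 at the threshold of 0.01 and 1 to 27 over the libraries left out. Over all genes the 786 calls became 1951, 1598, 1875, 2690, 2744, 3757 and 283 in the same order of settings, and 222 (without Pdcd1f/fLysMcre replicate 1) to 3181 (without Pdcd1f/f replicate 1) over the libraries left out. The offsets moved the share of higher calls from 44.5% to 57.0%. No alternative scaling moved the median of all genes by more than 0.02.

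The labels do not say that the replicate numbers pair the libraries. The deviations of same-numbered libraries correlated at -0.0132, -0.0970 and 0.220. With 3 libraries per genotype these values can neither show nor exclude a pairing. With the replicate number as a block, 0 members, 2 other GTPases, 10 pathway genes and 1027 genes in all were called. Of the same-numbered libraries, only those numbered 3 were each other's best match (0.220). Pdcd1f/f replicate 1 and Pdcd1f/fLysMcre replicate 2 were also each other's best match, at 0.235. Ifng had at most 4 counts in a library and was not tested, so no statement on a difference is made. For Pdcd1, at 7 to 16 counts, the interval of the fold ran from 0.422 to 1.67.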
